A study of Mus musculus with 3 samples.

Results

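Mitochondrial ribosomal protein genes were taken as the mouse genes whose symbols read *Mrpl* or *Mrps* followed by a number. All 77 such genes among the 27998 genes of the deposited matrices held 100 or more UMIs over the 3 libraries together, and 76 held 1000 or more. A UMI (unique molecular identifier) stands for 1 captured mRNA molecule. The members' totals ran from 176 UMIs for *Mrpl53* to 160353 UMIs for *Mrpl52*. By their place in the ribosome, 50 members belonged to the large subunit and 26 to the small subunit, and 46 had a bacterial counterpart whereas 30 are found in mitochondria alone. *Mrps36*, named with the small subunit, encodes a component of the 2-oxoglutarate dehydrogenase complex and was counted in neither subunit.

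The libraries were made from EpCAM+ cells of the small intestine of C57BL/6 mice, EpCAM being a surface protein of epithelial cells. There was 1 library per genotype, and every mouse had received 2 doses of 2 mg tamoxifen at 7 to 8 weeks of age. WT was taken on day 21. *LApc*, which combined *Lgr5-CreERT2* with *Apc fl/fl*, was taken on day 29, and *LApcL*, which carried *Lef1 fl/fl* in addition to both, on day 21, in each case when the animal met the criteria for euthanasia. The recombinase sits in the *Lgr5* locus, so deletion starts in *Lgr5*+ stem cells and reaches other cells through their offspring, and the labels do not say whether the WT mouse carried it. Genotype, mouse and library cannot be told apart, nor can day for *LApc*. No genotype had a replicate, so no test between genotypes was possible, and cell types were compared within each library without a test over the 3 libraries. Every interval given is a 95% interval that covers counting error only.

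The mitochondrial ribosome translates the mRNAs of mitochondrial DNA, which encode subunits of the respiratory chain complexes and of ATP synthase. Its rRNAs are made inside the mitochondrion. All of its proteins are encoded in the nucleus, made in the cytosol and imported, so the supply of a mitochondrial ribosome rests on many separate nuclear genes. In the small intestine, stem and transit amplifying cells of the crypt divide quickly, whereas absorptive enterocytes on the villus no longer divide and are rich in mitochondria.

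The genes were spread over 17 chromosomes, with 10 on chromosome 11 and 8 on chromosome 17 (GENCODE vM21, GRCm38). A protein-coding gene on the opposite strand started within the 1000 bases upstream, head to head, for 18 of the 77 members (23.4%). This share was 9.89% for the counted protein-coding genes with 100 or more UMIs. Head-to-head pairs that overlap at their starts, such as *Mrpl46* and *Mrps11*, are not in this count. The promoters of members that recur in the results are shown as the 250 bases before the RefSeq start (GRCm38.p6, the gene's own strand, 5′ to 3′). Capitals mark matches to the NRF1 letters (GCGCA and GCGC with 1 base of any kind between them) or the ETS letters CCGGAAG on either strand, both known from promoters of nuclear genes for mitochondrial proteins. The positions that follow are those of the printed windows and not of the whole genes. *Mrpl12*, at chr11:120484387-120484636 (+ strand), encodes the ribosome's stalk protein. *Mrpl45*, at chr11:97315466-97315715 (+), encodes the protein that holds the ribosome to the inner membrane. *Mrpl17*, at chr7:105811088-105811337 (-), was among the members higher in adenoma-enriched cells of both libraries. *Mrps22*, at chr9:98601680-98601929 (-), was lowest or near lowest in most differentiated cells. *Mrps36*, at chr13:100744660-100744909 (-), was higher in enterocytes, and no base of its window is in capitals because it held neither motif.
Mrpl12: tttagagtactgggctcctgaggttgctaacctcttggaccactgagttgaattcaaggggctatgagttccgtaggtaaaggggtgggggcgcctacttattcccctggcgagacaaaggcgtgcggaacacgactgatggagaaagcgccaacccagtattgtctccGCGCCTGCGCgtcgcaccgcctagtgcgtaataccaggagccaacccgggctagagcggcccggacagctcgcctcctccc
Mrpl45: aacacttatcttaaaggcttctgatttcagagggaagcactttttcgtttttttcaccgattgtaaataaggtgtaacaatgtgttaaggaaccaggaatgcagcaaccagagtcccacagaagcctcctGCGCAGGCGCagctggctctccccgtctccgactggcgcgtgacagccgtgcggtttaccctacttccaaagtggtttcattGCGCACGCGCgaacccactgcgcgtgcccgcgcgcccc
Mrpl17: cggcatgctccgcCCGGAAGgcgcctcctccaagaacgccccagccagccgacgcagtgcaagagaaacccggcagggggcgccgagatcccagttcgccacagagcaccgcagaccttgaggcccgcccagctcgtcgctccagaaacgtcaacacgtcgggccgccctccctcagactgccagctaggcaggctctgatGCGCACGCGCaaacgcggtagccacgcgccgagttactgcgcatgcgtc
Mrps22: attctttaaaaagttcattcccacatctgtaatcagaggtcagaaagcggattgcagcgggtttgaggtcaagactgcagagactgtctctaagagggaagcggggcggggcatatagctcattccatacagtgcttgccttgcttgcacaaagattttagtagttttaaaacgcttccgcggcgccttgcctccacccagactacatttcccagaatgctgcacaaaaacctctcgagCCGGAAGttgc
Mrps36: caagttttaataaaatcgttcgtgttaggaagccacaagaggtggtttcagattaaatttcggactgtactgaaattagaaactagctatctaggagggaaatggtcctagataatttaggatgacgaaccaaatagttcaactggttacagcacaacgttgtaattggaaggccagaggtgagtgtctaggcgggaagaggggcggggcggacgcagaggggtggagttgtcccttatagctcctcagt

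RefSeq promoter windows of 300 bases, reaching 50 bases past the start, were at hand for 68 members (74 windows). The ETS letters were in 33.8% of the members' windows against 16.4% of those of all genes with 100 or more UMIs and 8.86% of all windows. For the NRF1 letters these shares were 17.6%, 9.38% and 4.60%, and for the YY1 letters AAGATGGC 16.2%, 4.16% and 2.75%. The E-box CACGTG, which Myc can bind, was in 9.46% of the members' windows against 9.58% for genes with 100 or more UMIs. The letters CCAAT were in 40.5% against 37.7%, the Sp1 letters GGGCGG in 52.7% against 60.3% and TATAAA in 6.76% against 7.71%. At least 1 of the NRF1 and ETS motifs was in 45.9% of the members' windows and in 23.8% of those of genes with 100 or more UMIs. Letter matches of this kind are descriptions of sequence and not sites of binding. In the comparisons described later, the median log2 difference of members with an ETS match was 0.29 for *LApcL* over *LApc* in adenoma-enriched cells, as it was for members without one. With and without an ETS match the medians were -0.13 and -0.20 for adenoma-enriched over crypt cells in *LApc*, 0.13 and 0.0047 in *LApcL*, and -0.41 and -0.53 for enterocyte-like over crypt cells in WT. For NRF1 the medians of *LApcL* over *LApc* were 0.22 with and 0.30 without a match.

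The matrices held 11453 (WT), 13214 (*LApc*) and 17388 (*LApcL*) barcodes, of which 10164, 9814 and 14484 cells were kept, with medians of 9716.5, 6143 and 10165 UMIs per cell. Between 214 and 318 barcodes were shared by a pair of libraries. Barcodes over 20% mitochondrial UMIs made up 0.541% of the WT, 17.7% of the *LApc* and 2.38% of the *LApcL* library. Cells were grouped without the members or the related gene lists, and classes were named from markers. Wnt/TA-like cells, with markers of stem and transit amplifying cells, came from a cluster led by *Ifitm1* and *Clu* and another led by *Clca3b* and *Cdca7*. They were clustered again and split into adenoma-enriched cells (3 WT, 1294 *LApc* and 9262 *LApcL* cells) and the rest, called crypt cells here (3100, 2295 and 1285). Adenoma-enriched cells were those of subclusters in which WT made up less than 10% after equal weighting. In crypt cells *Lef1* stood at 0.341 (WT), 0.726 (*LApc*) and 1.54 (*LApcL*) CPM (counts per 1e+06 UMIs of the cell set), whereas adenoma-enriched cells had 21.6 CPM (219 UMIs, *LApc*) and 3.61 CPM (400 UMIs, *LApcL*). *Apc* stood at 19.3, 22.6 and 22.2 CPM in crypt cells, and the adenoma-enriched values were 48.9 and 37.3 CPM, but the tags come from the 3′ ends of transcripts and need not lie in the deleted part.

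To see where in the epithelium these genes were most abundant, the UMIs of all members were summed in each class. Crypt cells held the highest summed level of the named classes in WT and *LApc*, with 11007.5 (WT), 9901.0 (*LApc*) and 10080.3 CPM (*LApcL*). In *LApcL* the adenoma-enriched cells were higher still, at 10561.3 CPM. Among the differentiated classes, tuft-like cells (8584.6, 6675.2 and 8221.6 CPM), enterocyte-like cells (8419.8, 6730.3 and 8096.5 CPM) and enteroendocrine-like cells (7862.2, 5663.8 and 7963.0 CPM) lay close together. Tuft- and enterocyte-like cells changed places in *LApc*, where the tuft-like interval (6416.9 to 6941.3 CPM) held the enterocyte-like value. Goblet-like cells were lower than these classes in every library (5610.8, 4369.2 and 6079.1 CPM). This does not cover an unnamed cluster led by *Ccl9* and *Agr2*, with goblet markers raised and *Mki67* and *Top2a* among its leading genes. It stood at 8936.9, 8390.3 and 8604.0 CPM, above the tuft- and enterocyte-like classes. The unnamed cluster led by *Fabp6* stood at 6254.0, 6164.5 and 7015.2 CPM. The enterocyte-like class pooled clusters of unlike level. The cluster led by *Reg1* and *Arg2* stood at 9544.3, 7986.7 and 9136.2 CPM. That led by *Apoa4* stood at 5755.6, 3993.6 and 5277.8 CPM, below goblet-like cells in *LApc* and *LApcL*. Paneth-like cells were lowest, with 1473.0 (WT), 3091.3 (*LApc*) and 4920.9 CPM (*LApcL*). Counting intervals were narrow beside the spread of a class over the 3 libraries.

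**Figure D1:**
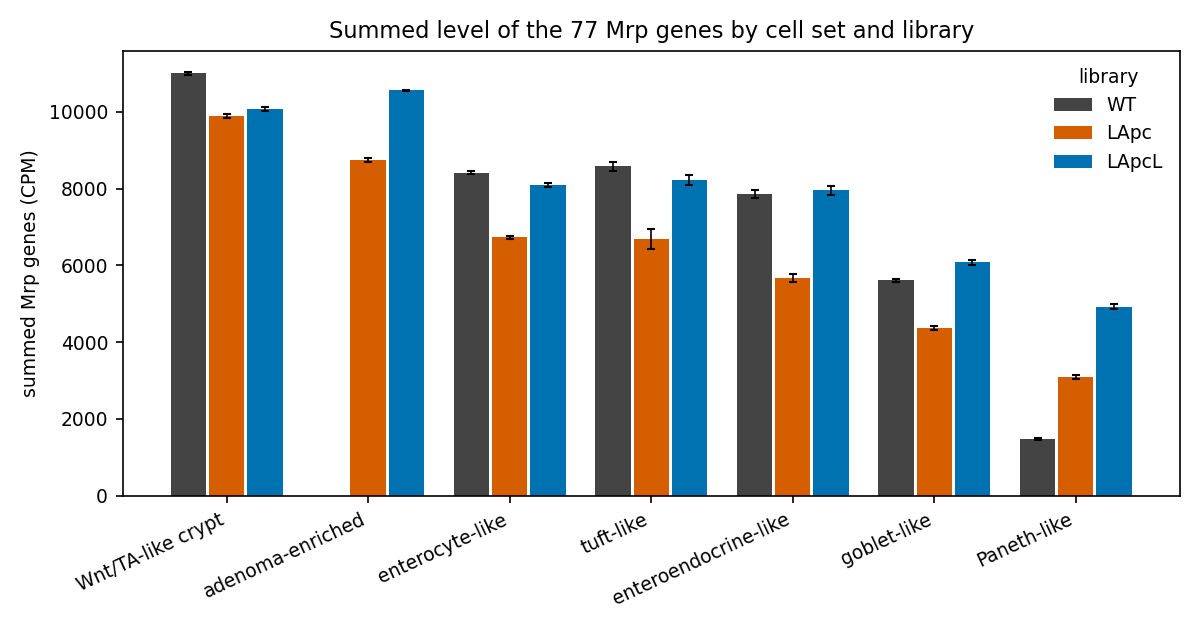
Summed level of the 77 genes (CPM, linear axis from 0) as bars, by cell set and library, with error bars for the 95% counting interval. Crypt bars reach from 9901.0 to 11007.5 CPM, goblet-like bars from 4369.2 to 6079.1 CPM, and the WT Paneth-like bar stands at 1473.0 CPM.

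The Paneth-like values need their depth beside them. WT Paneth-like cells had a median of 40809 UMIs per cell against 4825 in *LApc* and 8996.5 in *LApcL*, and cytosolic ribosomal protein genes made up 4.16% of their UMIs against 10.2% and 14.8%. In absolute terms a WT Paneth-like cell held 61.1 UMIs of the members on average, a WT goblet-like cell 49.2 and a WT crypt cell 124.8. The same averages were 28.2, 22.7 and 71.3 in *LApc* and 65.8, 43.7 and 96.6 in *LApcL*. Paneth-like cells were thus lowest in CPM but not in UMIs per cell. The small-to-large subunit ratio of summed levels moved little, from 0.450 (WT), 0.453 (*LApc*) and 0.443 (*LApcL*) in crypt cells to 0.490, 0.483 and 0.461 in goblet-like cells, and was lowest in *LApcL* adenoma-enriched cells (0.420).

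Enterocyte-like cells had lower levels of most members than crypt cells of their own library, while the mRNAs that the mitochondrial ribosome translates were higher. A member was counted as higher or lower when its CPM differed by 0.32 or more on the log2 scale, the fold limit used throughout. In WT, 54 of 77 members were lower by that measure and none higher, in *LApc* 65 were lower and 1 higher (*Mrps36*), and in *LApcL* 46 were lower and 1 higher (*Mrpl53*, from few UMIs). Of all genes with 100 or more UMIs, 45.7%, 50.7% and 41.2% were lower by this measure, and 29.4%, 28.1% and 32.0% were higher. The members' median log2 difference was -0.48 in WT, -0.73 in *LApc* and -0.41 in *LApcL*, against -0.14, -0.24 and -0.08 for genes of like abundance (3014 genes with totals between 13378 and 96309 UMIs). Cytosolic ribosomal protein genes were further below crypt cells, with medians of -0.82, -1.03 and -0.68. In all 3 libraries 68 members were lower than in crypt cells, and 44 of them past the fold limit in each. Of all genes, 42.0% (WT), 37.3% (*LApc*) and 44.8% (*LApcL*) were above 0, and the share lower in all 3 at once was not counted. Large and small subunit members moved alike (medians -0.48 and -0.54 in WT, -0.70 and -0.82 in *LApc*, -0.42 and -0.38 in *LApcL*). With no doublet removal the medians were -0.85, -1.07 and -0.63, but the class then held other cells, since the cluster led by *Fabp6* was named enterocyte-like and that led by *Dmbt1*, *Aadac* and *Arg2* stayed unnamed. On TMM scaling, which centres each comparison on the bulk of genes, it was -0.33, -0.40 and -0.29, and the share of all genes above 0 in *LApc* was 49.7% in place of 37.3%.

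The steepest differences were in *Mrps22*, a small-subunit protein found in mitochondria alone, and *Mrpl19*, the counterpart of a bacterial protein at the subunit interface. *Mrps22* stood at 63.0 CPM in crypt and 33.3 CPM in enterocyte-like WT cells, at 42.2 and 15.3 CPM in *LApc*, and at 43.8 and 25.6 CPM in *LApcL*. Its log2 differences were -0.92 (-1.05 to -0.79), -1.47 (-1.68 to -1.26) and -0.78 (-0.98 to -0.57). *Mrps22* was thus the lowest member or next to it in each library, and its intervals did not reach 0. *Mrpl19* lay in the same range, at 72.5 and 35.6 CPM in WT, 66.5 and 24.9 CPM in *LApc*, and 55.4 and 33.7 CPM in *LApcL*. *Mrps27*, a further small-subunit protein found in mitochondria alone, was among the 5 lowest in WT (-0.91) and *LApc* (-1.36), and *Mrps17*, of the small-subunit body, in WT (-0.80) and *LApcL* (-0.75).

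*Mrps36* went the other way. It stood at 198.0 CPM in crypt and 246.3 CPM in enterocyte-like WT cells, at 162.5 and 210.3 CPM in *LApc*, and at 159.2 and 187.6 CPM in *LApcL*, log2 differences of 0.31 (0.26 to 0.37), 0.37 (0.30 to 0.45) and 0.24 (0.15 to 0.32). It was the highest-ranked of the named members in all 3 libraries, and it is the member that works in the citric acid cycle and not in the ribosome. *Mrpl34* (0.19, 0.01 and 0.14) and *Mrps21* (0.03, 0.08 and 0.09) were also above 0 in every library. These small positive values depended on the cells and on the scale. In the cluster led by *Apoa4*, *Mrpl34* (-0.39, -0.81 and -0.58) and *Mrps21* (-0.34, -0.26 and -0.36) were below crypt cells in all 3 libraries, whereas *Mrps36* was at 0.25, 0.25 and 0.02 (-0.12 to 0.16 in *LApcL*). When cytosolic ribosomal protein and mitochondrial genes were left out of the total, *Mrpl34* and *Mrps21* were below 0 in all 3 libraries, and *Mrps36* stayed above 0 in WT and *LApc* and went below 0 in *LApcL*.

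Members with a well known role in the ribosome lay near the median. *Mrpl12* stood at 437.3 CPM in crypt and 327.5 CPM in enterocyte-like WT cells, at 399.2 and 263.9 CPM in *LApc*, and at 406.5 and 331.2 CPM in *LApcL*. *Mrpl45* went from 73.1 to 55.7 CPM, from 66.2 to 38.2 CPM and from 63.6 to 46.4 CPM in the same order, and *Mrps12*, of the decoding centre, from 183.1 to 125.6, from 169.1 to 94.9 and from 163.5 to 124.6 CPM. *Mrpl11*, at the base of the stalk, and *Mrps30*, a large-subunit protein despite its name, were likewise lower in enterocyte-like cells of every library.

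The 13 mRNAs encoded by mitochondrial DNA made up 7.59% of all UMIs in WT enterocyte-like cells, 8.77% in *LApc* and 7.03% in *LApcL*, against 5.35%, 5.54% and 5.15% in crypt cells. Each of the 13 was above 0 in each library, and 10, 13 and 10 of them past the fold limit. Per 100 UMIs of these mRNAs there were 20.6, 17.9 and 19.6 UMIs of the members in crypt cells and 11.1, 7.68 and 11.5 in enterocyte-like cells. Both clusters that made up the enterocyte-like class had lower ratios than crypt cells. They were 14.1, 10.7 and 14.8 in the cluster led by *Reg1* and *Arg2*, and 6.04, 3.43 and 5.62 in the cluster led by *Apoa4*, a lipoprotein gene of villus enterocytes. The members' median differences from crypt cells were -0.29, -0.43 and -0.21 in the former and -1.14, -1.67 and -1.06 in the latter.

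**Figure D2:**
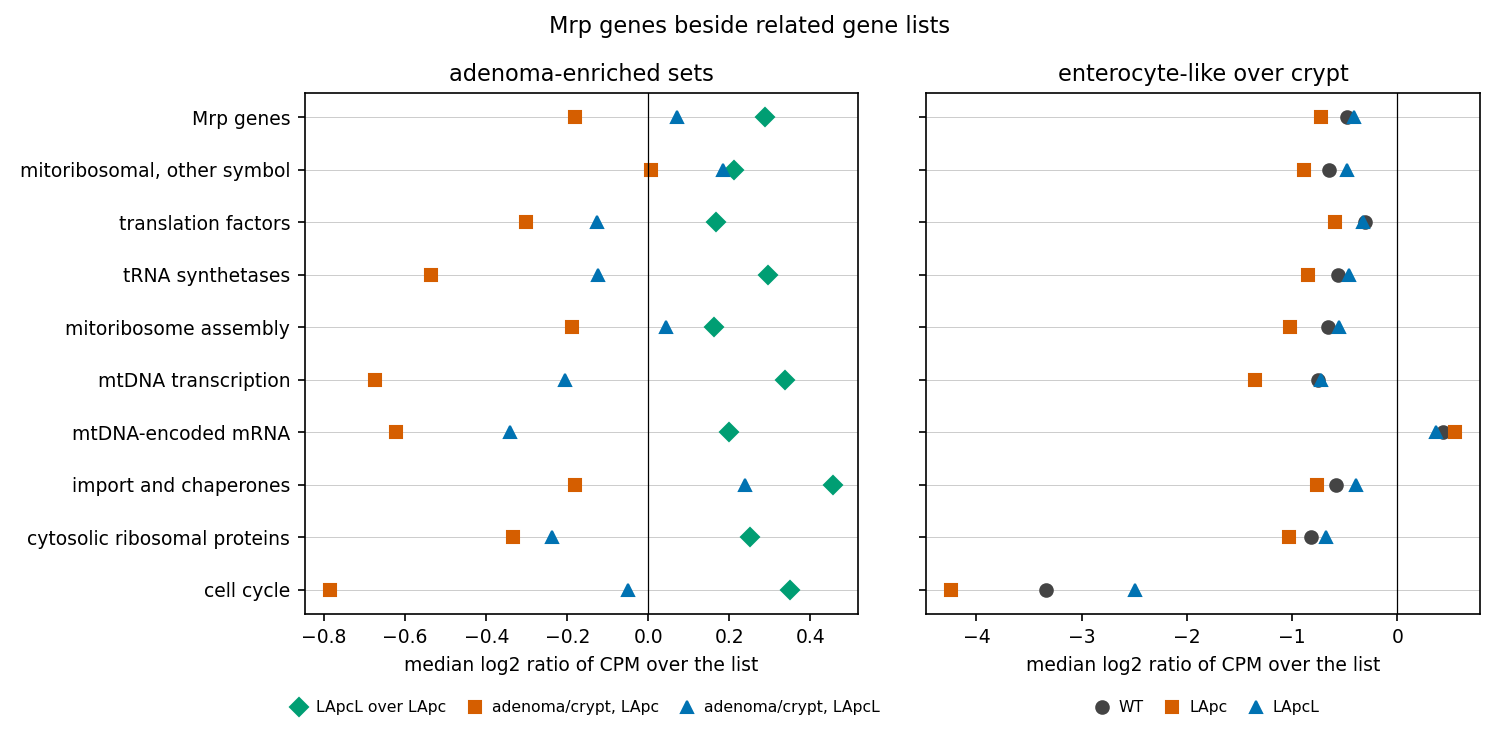
Median log2 ratio of CPM over the members and over each related gene list, for the adenoma-enriched comparisons (left) and for enterocyte-like over crypt cells in each library (right), with the line at 0 as no difference. In enterocyte-like cells the members and the other lists lie below 0 and the mRNAs of mitochondrial DNA above it, with medians of 0.43 (WT), 0.54 (*LApc*) and 0.37 (*LApcL*).

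Goblet-like cells had lower levels of nearly every member. In WT 74 of 77 members were lower past the fold limit, in *LApc* 76 and in *LApcL* 73, where 57.5%, 60.3% and 48.6% of all genes with 100 or more UMIs were lower. The medians were -1.15, -1.33 and -0.84, against -0.56, -0.66 and -0.36 for genes of like abundance. For cytosolic ribosomal protein genes they were -0.88, -1.16 and -0.61. In the unnamed cluster led by *Ccl9* and *Agr2* the members were nearer to crypt cells, with medians of -0.37, -0.29 and -0.30. *Mrps22* (63.0 and 12.7 CPM in WT crypt and goblet-like cells, 42.2 and 8.36 CPM in those of *LApc*, 43.8 and 14.0 CPM in those of *LApcL*) and *Mrps6*, a protein of the small-subunit platform (56.7 and 11.1 CPM, 42.7 and 8.48 CPM, 48.2 and 17.8 CPM), were more than 2-fold lower in every library. *Mrpl52*, a large-subunit protein found in mitochondria alone, differed least in WT, with 453.3 CPM in crypt and 436.9 CPM in goblet-like cells (-0.05, -0.09 to -0.02), but stood at 433.9 and 303.9 CPM in *LApc* and at 519.3 and 425.3 CPM in *LApcL*. *Mrpl17* was the least lowered member of *LApcL* goblet-like cells (146.3 and 133.8 CPM, -0.13). On TMM scaling the medians were -0.70, -0.81 and -0.58, and members above 0 numbered 6, 4 and 1, with *Mrpl52* among them in WT and *LApc* and *Mrpl17* in WT and *LApcL*. Of all genes, 47.5%, 47.9% and 49.2% were above 0 on that scale.

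In Paneth-like cells all 77 members were lower past the fold limit in each library, where 91.5%, 80.2% and 75.2% of all genes with 100 or more UMIs were lower too. The medians of -3.02, -1.73 and -1.05 stood beside medians of -2.57, -1.32 and -0.85 for genes of like abundance. For cytosolic ribosomal protein genes they were -2.91, -1.68 and -1.26. *Mrpl17* (-2.31 in WT, -0.67 in *LApcL*) and *Mrpl54* (-2.52, -1.34 and -0.66) were among the least lowered. On TMM scaling the medians were -0.69, -0.60 and -0.27, 67, 68 and 31 members were lower past the fold limit, and *Mrpl17* (WT and *LApcL*) and *Mrpl54* (*LApcL*) were above 0. Of all genes, 46.8%, 48.1% and 47.5% were above 0 on that scale, and the share past the fold limit was not counted there.

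Enteroendocrine-like cells had 65, 73 and 45 members lower (28.8%, 33.4% and 22.6% of all genes) with medians of -0.53, -0.88 and -0.37. *Mrps33*, of the small subunit, was the member above 0 in all 3 libraries, with 189.4 and 198.5 CPM in WT, 183.2 and 195.2 CPM in *LApc*, and 175.6 and 231.1 CPM in *LApcL*. Its log2 difference in *LApcL* was 0.40 (0.25 to 0.54), and in WT and *LApc* it was below 0 when the data were scaled by TMM. *Mrps22* (30.6 CPM in WT, 28.6 CPM in *LApcL*) and *Mrpl12* (243.7, 137.9 and 231.6 CPM) were below their crypt levels in each library.

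Tuft-like cells set a few members apart in the upward direction. Over all members the medians were -0.39, -0.71 and -0.36, and 45, 57 and 43 members were lower (34.4%, 45.3% and 29.3% of all genes), with 2, 2 and 4 higher (37.9%, 37.2% and 47.6%), 1 of the WT members being *Mrpl53* with 1 UMI. *Mrpl46*, a large-subunit protein found in mitochondria alone, was the member that was higher past the fold limit in all 3 libraries. It stood at 93.8 CPM in crypt and 120.8 CPM in tuft-like cells of WT, at 73.1 and 122.0 CPM in *LApc*, where tuft-like cells gave 46 UMIs, and at 82.6 and 113.3 CPM in *LApcL*. The log2 differences were 0.37 (0.19 to 0.54), 0.74 (0.28 to 1.17) and 0.46 (0.23 to 0.68), and they stayed above 0 on every scale used. In no other named class was *Mrpl46* above its crypt level, with values of 59.1, 44.7, 38.7 and 59.0 CPM in enterocyte-, goblet-, Paneth- and enteroendocrine-like cells of *LApcL*.

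*Mrps11*, a small-subunit protein with a bacterial counterpart, is the head-to-head neighbour of *Mrpl46* on chromosome 7 (*Mrpl46* at chr7:78775236-78783531 on the - strand, *Mrps11* at chr7:78783119-78792989 on the + strand). It stood at 63.0 CPM in crypt and 77.4 CPM in tuft-like cells of WT (0.30, 0.07 to 0.52), at 70.2 and 82.2 CPM in *LApc*, and at 57.4 and 61.0 CPM in *LApcL*. The genes overlap at their 5′ ends on opposite strands, and the strand setting of the counting is not given in the sources used here. *Mrpl43* stood at 133.0 and 148.0 CPM, 122.9 and 169.8 CPM, and 120.4 and 175.5 CPM in crypt and tuft-like cells of WT, *LApc* and *LApcL*. *Mrpl12* was at the other end, with 437.3 and 217.7 CPM in WT and 406.5 and 186.1 CPM in *LApcL*. *Mrps22* (29.3 CPM in WT) and *Mrps28* (67.2 against 142.5 CPM in WT) were as low. On TMM scaling or with cytosolic ribosomal protein and mitochondrial genes left out, *Mrps11* in *LApc* and *LApcL* and *Mrpl43* in WT were below 0.

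Within each mutant library, adenoma-enriched cells were set against crypt cells, so that day and library were shared. In *LApc* the members were lower, with a summed level of 8747.1 CPM against 9901.0 CPM (-0.18, -0.19 to -0.17), 27 members lower and 4 higher past the fold limit. Of all genes with 100 or more UMIs, 20.8% were lower and 46.7% were higher. In *LApcL* the summed level was 10561.3 CPM in adenoma-enriched and 10080.3 CPM in crypt cells (0.07, 0.06 to 0.08), 2 members were lower and 8 higher, against 17.5% and 41.1% of all genes. The members' medians were -0.18 and 0.07, below those of genes of like abundance in both libraries (0.16 and 0.19). The direction in *LApcL* rested on the scale, since the median was -0.09 on TMM scaling (10 members lower and 6 higher) and -0.07 with cytosolic ribosomal protein and mitochondrial genes left out of the total. In *LApc* the median was -0.46 on TMM scaling (56 lower and none higher) and -0.10 where cells were classed by marker score. TMM scaling moved the share of all genes above 0 from 64.9% to 48.3% in *LApc* and from 64.9% to 52.7% in *LApcL*. By subunit, the medians in *LApc* were -0.13 for the large and -0.27 for the small subunit, and in *LApcL* 0.10 and 0.00.

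The order of the members was alike in the libraries. Across the 77 members Pearson's r between the *LApc* and *LApcL* differences was 0.76 and Spearman's rho 0.82, a description over genes, which are not independent replicates. Members higher in both libraries numbered 18, members lower in both 31, and 28 differed in sign. Of all genes, 64.9% were above 0 in *LApc* and 64.9% in *LApcL*. Neither the correlation nor the overlap was taken over all genes, so whether this likeness is particular to the members was not tested. Higher past the fold limit in both were *Mrpl17*, *Mrpl20*, *Mrps6* and *Mrpl53*, and lower in both were *Mrps31* and *Mrps9*.

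*Mrpl17*, the counterpart of a bacterial protein near the exit of the peptide tunnel, stood at 139.8 CPM in crypt and 196.6 CPM in adenoma-enriched *LApc* cells, and in *LApcL* at 146.3 and 206.0 CPM. Both differences were 0.49 (0.41 to 0.58 and 0.42 to 0.56). *Mrpl17* was thus higher by about the same amount in each library. *Mrpl20*, whose bacterial counterpart is needed to assemble the large subunit, went from 206.9 to 258.8 CPM (0.32, 0.25 to 0.40) and from 210.1 to 310.4 CPM (0.56, 0.51 to 0.62). *Mrps6* went from 42.7 to 55.7 CPM (0.38, 0.22 to 0.55) and from 48.2 to 67.8 CPM (0.49, 0.37 to 0.61). These 3 genes stayed above 0 on each scale in *LApc*. *Mrpl53* was counted with 2 UMIs in *LApcL* crypt cells and 75 in adenoma-enriched cells, and 88.0% of its exon bases lie in exons of *Gm42688* on the same strand, so its value is uncertain.

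*Mrps18a* and *Mrpl54* stood out in *LApcL*. *Mrps18a*, a large-subunit protein despite its name, went from 116.2 to 184.4 CPM in *LApcL* (0.67, 0.59 to 0.74) and from 115.2 to 134.7 CPM in *LApc* (0.23, 0.12 to 0.33), and the *LApc* value was below 0 on TMM scaling. *Mrpl54* went from 212.1 to 316.7 CPM in *LApcL* (0.58, 0.52 to 0.64) and from 224.7 to 261.9 CPM in *LApc*.

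At the low end, *Mrps31*, a small-subunit protein found in mitochondria alone, went from 56.0 to 30.3 CPM in *LApc* (-0.88, -1.07 to -0.70) and from 61.8 to 44.3 CPM in *LApcL* (-0.48, -0.59 to -0.37). *Mrps9*, which reaches toward the peptidyl-tRNA site, went from 77.2 to 48.1 CPM (-0.68, -0.84 to -0.53) and from 77.3 to 59.8 CPM (-0.37, -0.47 to -0.27). Both were lower in each library with intervals clear of 0. *Mrpl12* and *Mrps5*, the latter at the entrance of the mRNA channel, were well below crypt cells in *LApc* and nearer to them in *LApcL*. *Mrpl12* went from 399.2 to 255.8 CPM in *LApc* (-0.64, -0.71 to -0.58) and from 406.5 to 389.7 CPM in *LApcL* (-0.06, -0.10 to -0.02). *Mrps5* went from 104.3 to 66.6 CPM in *LApc* (-0.65, -0.78 to -0.52) and from 127.6 to 110.9 CPM in *LApcL* (-0.20).

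**Figure D3:**
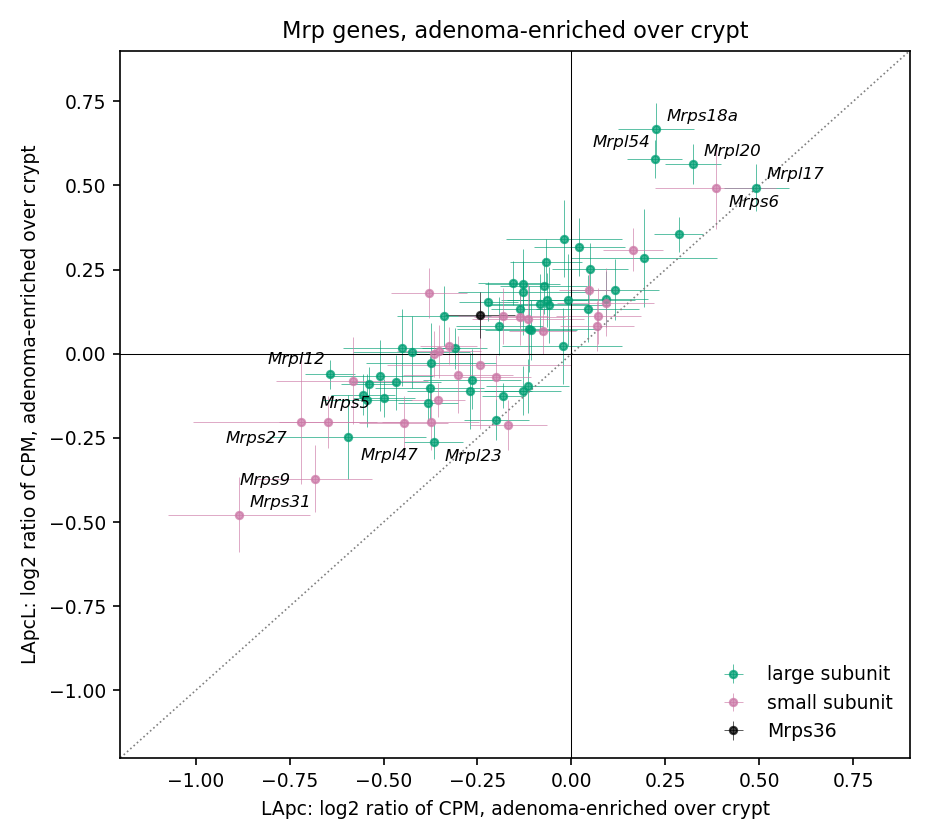
Log2 ratio of adenoma-enriched over crypt cells for each member in *LApc* (horizontal axis) and *LApcL* (vertical axis), with 95% counting intervals as lines, the diagonal dotted, colours for the large subunit, the small subunit and *Mrps36*, and *Mrpl53* not drawn. *Mrpl17* lies at 0.49 on both axes, and *Mrpl12* lies at -0.64 for *LApc* and -0.06 for *LApcL*.

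The comparison made for *Lef1* deletion, *LApcL* over *LApc* in adenoma-enriched cells, gave higher levels of most members in *LApcL*. The class was made up of different cells in the libraries. Cells with more UMIs of *S100g* than of *Wfdc18*, called S100g-high here whatever their level, made up 408 of 1294 cells in *LApc* and 8781 of 9262 in *LApcL*. A single subcluster held 434 of the *LApc* and 320 of the *LApcL* cells. Among S100g-high cells alone the median difference was 0.25. The summed level was 10561.3 CPM in *LApcL* and 8747.1 CPM in *LApc*, a difference of 0.27 (0.26 to 0.28) on the log2 scale. Of the 77 members, 33 were higher past the fold limit and none lower, where 14.3% of all genes with 100 or more UMIs were higher and 37.2% lower (14.0% and 20.3% of genes of like abundance). The median was 0.29, against -0.03 for genes of like abundance and 0.25 for cytosolic ribosomal protein genes. On TMM scaling it was 0.53, with 66 members higher, and the share of all genes above 0 was 56.5% in place of 35.3%. Members above 0 numbered 73, and for 67 the counting interval lay above 0. The exceptions below 0 were *Mrps17*, *Mrps11*, *Mrps2* and *Mrpl53*, and each of the first 3 was above 0 on both other scales. The large and small subunits had the same median (0.29 in both, 23 of 50 and 9 of 26 members higher), and members found in mitochondria alone and those with a bacterial counterpart had medians of 0.32 and 0.25.

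The highest differences were in members that had been low in *LApc* adenoma-enriched cells, which enter both comparisons. *Mrps5* stood at 66.6 CPM in *LApc* and 110.9 CPM in *LApcL* (0.74, 0.62 to 0.85). *Mrpl47*, the counterpart of a bacterial protein at the tunnel exit, stood at 26.4 and 41.3 CPM (0.65, 0.47 to 0.83). *Mrpl12* stood at 255.8 and 389.7 CPM (0.61, 0.55 to 0.66). *Mrps22* (28.2 and 41.4 CPM) and *Mrps31* (30.3 and 44.3 CPM) were both higher by 0.55. In each of these 5 genes the *LApcL* value was at or below the level of *LApcL* crypt cells.

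The smallest differences with an interval clear of 0 were in *Mrpl17* (196.6 and 206.0 CPM, 0.07), *Mrps12* (147.2 and 155.7 CPM, 0.08), *Mrps33* (205.2 and 217.6 CPM, 0.08), *Mrpl24* (120.3 and 128.4 CPM, 0.09) and *Mrpl14* (162.6 and 173.8 CPM, 0.10). Other members with a well known role lay between. *Mrps18a* stood at 134.7 and 184.4 CPM (0.45, 0.37 to 0.53), *Mrpl45* at 49.3 and 63.8 CPM (0.37, 0.24 to 0.51), *Mrpl11* at 95.8 and 121.0 CPM (0.34, 0.24 to 0.43), *Mrps30* at 40.0 and 50.5 CPM (0.34, 0.19 to 0.48) and *Mrps36* at 137.3 and 172.4 CPM (0.33, 0.25 to 0.41). *Ict1*, the release factor built into the large subunit that rescues stalled ribosomes, stood at 115.7 and 124.2 CPM (0.10, 0.02 to 0.19).

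Other features differed between these cell sets as well. The median depth was 7492 UMIs per cell in *LApc* and 11472 in *LApcL*. The summed level of 8 goblet markers was 3884.3 (*LApc*) and 1252.8 CPM (*LApcL*), of 10 enterocyte markers 3371.1 and 1359.5 CPM, of 8 enteroendocrine markers 581.7 and 97.5 CPM, and of 8 tuft markers 85.7 and 30.3 CPM, with 1 tuft marker at 0 in *LApc* (*Il25*). The summed level of 6 immune markers was 49.5 and 2.0 CPM and that of 6 stromal markers 24.4 and 15.8 CPM, with 3 stromal markers at 0 in each set (*Col1a1*, *Col1a2* and *Col3a1* in *LApc*, *Col1a1*, *Col3a1* and *Dcn* in *LApcL*). The 16 Wnt/TA markers summed to 3562.2 and 3324.2 CPM. The part of these features in the members' difference was not tested.

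**Figure D4:**
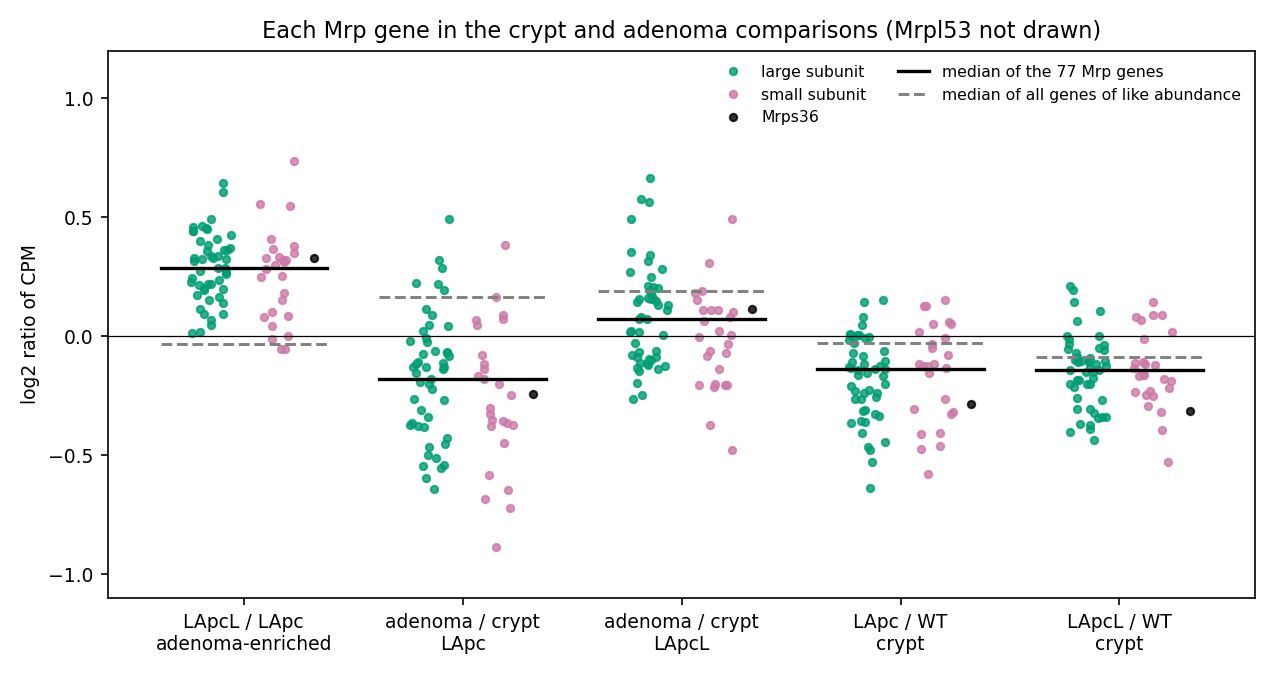
Log2 ratio of CPM for each member (1 point each, *Mrpl53* not drawn) in the adenoma-enriched and crypt comparisons, with a solid line at the members' median and a dashed line at the median of genes of like abundance. For *LApcL* over *LApc* adenoma-enriched cells the solid line is at 0.29 and the dashed line at -0.03.

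Among crypt cells the genotypes were close, and both mutant libraries were set against the same WT cells, so their comparisons are not independent. Their summed levels were 11007.5 (WT), 9901.0 (*LApc*) and 10080.3 CPM (*LApcL*). In *LApc* over WT, 17 members were lower and 1 higher past the fold limit (13.9% and 27.6% of all genes, 10.5% and 10.9% of genes of like abundance), with a median of -0.14. The member that was higher was *Mrpl53*, from few UMIs. In *LApcL* over WT, 12 were lower and none higher (19.5% and 22.4% of all genes, 14.6% and 6.77% of genes of like abundance), again with a median of -0.14. Genes of like abundance had medians of -0.03 and -0.09. With cytosolic ribosomal protein and mitochondrial genes left out, the *LApcL* median was -0.03, with 3 members lower and 1 higher. The share of all genes past the limit was not counted on that scale.

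*Mrps22* stood at 63.0 CPM in WT, 42.2 CPM in *LApc* (-0.58, -0.70 to -0.46) and 43.8 CPM in *LApcL* (-0.53, -0.66 to -0.39). *Mrpl47* stood at 62.1, 39.9 and 49.0 CPM, and *Mrpl38*, of the large subunit, was lower by 0.53 and 0.40 on the log2 scale (-0.53 and -0.40). *Mrpl17* was above WT in both, at 126.3 CPM in WT, 139.8 CPM in *LApc* (0.15, 0.07 to 0.22) and 146.3 CPM in *LApcL* (0.21, 0.13 to 0.29). *Mrpl52* stood at 453.3, 433.9 and 519.3 CPM and *Mrps36* at 198.0, 162.5 and 159.2 CPM. *LApcL* and *LApc* crypt cells were close, with a median of 0.03, none of the members higher and 1 lower, *Mrpl53* (14.9% and 24.1% of all genes). Crypt cells of WT, *LApc* and *LApcL* also differed in the summed level of 10 enterocyte markers (3778.6, 4900.6 and 2402.0 CPM), of 8 goblet markers (4658.6, 3031.2 and 1359.2 CPM) and of 7 Paneth markers (4369.9, 1241.8 and 1110.2 CPM), and the part of these in the members' values was not tested.

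To compare dividing with other cells, crypt and adenoma-enriched cells were split by 14 cell cycle genes. After thinning each cell to 3000 UMIs, cells with 2 or more UMIs of these genes were called cycling and were set against cells with none. The members were higher in cycling cells of every set. Their summed level was 11385.1 and 9825.4 CPM in cycling and other crypt cells of WT, 10454.4 and 8597.1 CPM in those of *LApc*, and 10520.8 and 9285.7 CPM in those of *LApcL*. Adenoma-enriched cells held 9803.9 and 7873.1 CPM (*LApc*) and 11086.9 and 9579.0 CPM (*LApcL*). The median differences were 0.22, 0.31 and 0.17 in crypt cells and 0.30 and 0.21 in adenoma-enriched cells, with 13, 34, 10, 35 and 10 members higher past the fold limit (25.4%, 27.8%, 28.3%, 20.6% and 13.9% of all genes). The share of members higher was thus below that of all genes in WT and *LApcL* crypt cells and in *LApcL* adenoma-enriched cells. *Mrpl51* (0.62, 0.85 and 0.79 in crypt, 0.65 and 0.46 in adenoma-enriched cells) and *Mrpl18* (0.45, 0.52 and 0.29, then 0.85 and 0.60) were high in each set, and were chosen here after their values were seen. Cycling cells were also deeper (11441 against 8576 UMIs per cell in WT crypt cells).

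The share of cycling cells was 33.2% in *LApc* and 53.8% in *LApcL* adenoma-enriched cells, so the *LApcL* over *LApc* difference was taken again within each kind of cell. In cycling cells the median was 0.19, against -0.10 for all genes. There 15 of 77 members were higher, a share near the 16.6% of all genes, and none lower (32.0% of all genes). In other cells the median was 0.28, against -0.18 for all genes, with 30 members higher (17.9% of all genes) and 1 lower (39.7%). Within *LApc*, the adenoma-enriched over crypt median was -0.10 in cycling and -0.13 in other cells, and within *LApcL* 0.06 and 0.04.

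**Figure D5:**
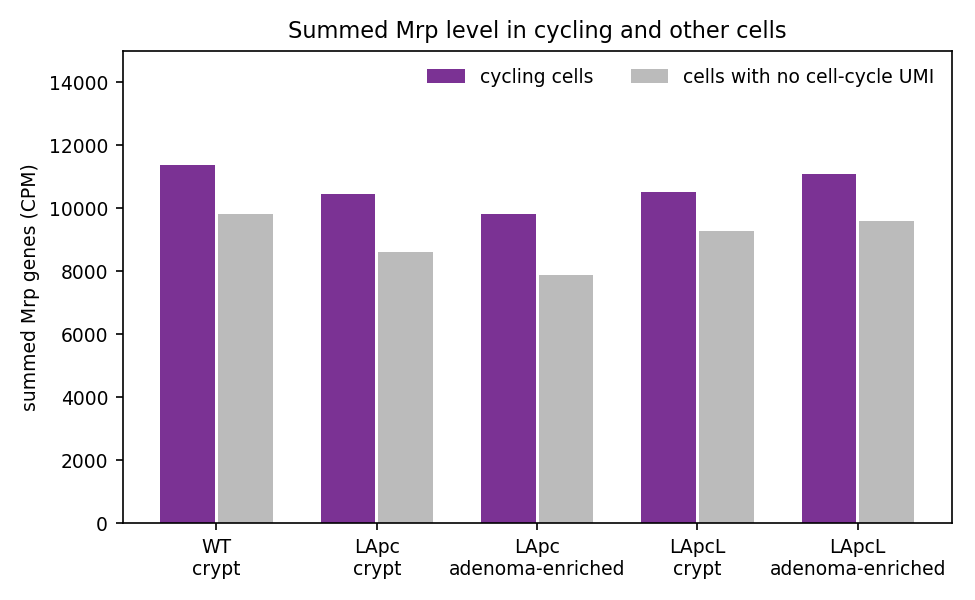
Summed level of the 77 genes (CPM, linear axis from 0) as bars in cycling cells and in cells with no cell cycle UMI, for each crypt and adenoma-enriched set. Cycling cells are higher in each of the 5 sets, for example 9803.9 against 7873.1 CPM in *LApc* adenoma-enriched cells.

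Genes that work with the mitochondrial ribosome were followed as lists. In *LApcL* over *LApc* adenoma-enriched cells, 12 of 19 import and chaperone genes were higher past the fold limit (median 0.46), with *Timm44* at 57.6 and 99.3 CPM, *Tomm5* at 320.4 and 533.7 CPM and *Hspd1*, the matrix chaperonin, at 344.5 and 545.3 CPM. Of all genes, 14.3% were higher and 37.2% lower. Of 17 mitochondrial tRNA synthetases 8 were higher and 1 lower (median 0.30), of 9 genes for mitochondrial DNA transcription and upkeep 5 were higher (0.34), of 13 translation factors 4 were higher and 1 lower (0.17), of 22 assembly factors 4 were higher (0.16) and of the 6 ribosomal proteins with other symbols 2 were higher (0.21). The 13 mRNAs of mitochondrial DNA had a median of 0.20, and 4 were higher. *Tfam*, which packs mitochondrial DNA and starts its transcription, stood at 45.2 and 71.2 CPM in *LApc* and *LApcL* (0.66, 0.52 to 0.79), below its crypt levels of 106.1 and 107.8 CPM.

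Adenoma-enriched cells were set against crypt cells of *LApc* for the same lists, where 20.8% of all genes were lower and 46.7% higher. Of 17 tRNA synthetases 14 were lower (median -0.54), of 9 genes for mitochondrial DNA transcription and upkeep 6 (-0.67), and of 13 translation factors 6 (-0.30), with none higher in these lists. Of 19 import and chaperone genes 9 were lower and 2 higher (-0.18), of 22 assembly factors 8 were lower and 2 higher (-0.19), and none of the 6 ribosomal proteins with other symbols was past the limit (0.01). The 13 mRNAs of mitochondrial DNA, which are not nuclear, had 12 lower (-0.62). In *LApcL*, where 17.5% of all genes were lower and 41.1% higher, the medians were -0.12, -0.21, -0.13, 0.24, 0.04, 0.19 and -0.34 in the same order. The 84 cytosolic ribosomal protein genes had medians of -0.33 and -0.24, so the members stood above them in both libraries. Per 100 UMIs of the mRNAs of mitochondrial DNA, adenoma-enriched cells held 22.8 (*LApc*) and 26.2 (*LApcL*) UMIs of the members, more than the crypt cells of any library (17.9 to 20.6).

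Of 12 regulators tied to mitochondrial gene expression, *Myc* stood at 49.2 CPM (*LApc*) and 61.3 CPM (*LApcL*) in adenoma-enriched cells (0.32, 0.19 to 0.45), above the 42.3 and 34.1 CPM of crypt cells. *Myc* was low in enterocyte-like cells (3.89, 5.52 and 14.0 CPM). *Ppargc1a*, a coactivator of mitochondrial genes, was the reverse, at 37.3, 49.6 and 38.2 CPM in enterocyte-like cells against 7.40, 11.9 and 9.09 CPM in crypt cells. *Esrra*, its partner receptor, stood at 141.3, 143.1 and 123.0 CPM against 68.4, 72.7 and 57.1 CPM. *Nrf1* (17.5 and 18.5 CPM), *Gabpa* (16.1 and 18.1 CPM) and *Yy1* (67.7 and 70.5 CPM), whose letters were searched for in the promoters or are of that family, differed between *LApc* and *LApcL* adenoma-enriched cells by less than their counting intervals.

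Counts are less certain, in either direction, for members whose exons overlap those of other genes, since the handling of such reads was not examined. Apart from *Mrpl53*, exon bases were shared on the same strand by *Mrps34* with *Nme3* (37.0%), *Mrps24* with *Urgcp* (15.4%) and *Mrps6* with *Slc5a3* (10.4%). For 24 members an exon overlapped one of a gene on the opposite strand, *Mrpl12*, *Mrpl43*, *Mrpl46*, *Mrpl47* and *Mrps11* among them.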

How the data were processed

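Single-cell RNA sequencing (10x Genomics, 3′ tags) was done on EpCAM+ small intestinal cells, 1 library per genotype. The deposited values are raw UMI counts per gene and barcode, which the authors made with Cell Ranger 2.1.1 on the mm10 genome. The deposited counts were read as they stand. Depth came to 140181087 UMIs for WT, 79696291 for *LApc* and 191509615 for *LApcL*, and no replicate shows how far 2 mice of 1 genotype differ.

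Barcodes over 20% mitochondrial UMIs, and 1% at each end of the number of genes, were left out. Doublets were taken as the highest scores of Scrublet (in scanpy 1.11.5) at 0.8% per 1000 barcodes, in place of the study's caller, and 997, 922 and 2236 barcodes were removed. Cells were integrated by CCA and clustered in Seurat 5.3.0 (R 4.3.3; 20 components, 20 neighbours, resolution 0.2) without the members or related lists. Clusters were named from marker genes where at least 3 were raised, and clusters whose leading genes went against a name stayed unnamed. Wnt/TA-like cells were corrected by mutual nearest neighbours (53 neighbours) and split by the Leiden method (leidenalg 0.10.2, resolution 0.4). Rebuilt classes need not match the study's.

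UMIs were summed per library and class and divided by the total (CPM). Levels carry exact Poisson intervals and log2 ratios exact conditional binomial intervals (scipy 1.17.1), both at 95% and for counting error only. TMM factors came from edgeR 4.0.16. The scripts were tested on simulated data. With cells not being replicates, no p-value was computed. Named in each comparison were the 5 highest and 5 lowest members with 50 or more UMIs and an interval clear of 0, from which the text takes examples, and members with a known role (*Mrpl12*, *Mrpl11*, *Mrpl45*, *Mrps12*, *Ict1*, *Mrps30*, *Mrps18a*, *Mrps36*). The members and lists were chosen with earlier results of these data known. Positions came from GENCODE vM21 (GRCm38, the same build as mm10) and promoters from RefSeq (GRCm38.p6), matched by symbol for 68 of 77 members. Alternatives covered the scaling, depth, doublets, mitochondrial limit, classing, minimum count and fold.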

Additional observations from a re-analysis of the deposited data

How the results depend on the processing

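All values here are median log2 differences of the members. On TMM scaling they were 0.53 for *LApcL* over *LApc* adenoma-enriched cells, -0.46 and -0.090 for adenoma-enriched over crypt cells in *LApc* and *LApcL* (the latter a change of sign), -0.21 and -0.13 for *LApc* and *LApcL* over WT crypt cells, and -0.33, -0.40 and -0.29 for enterocyte-like over crypt cells in WT, *LApc* and *LApcL*. In the same order, they were 0.40, -0.36, -0.073 (a change of sign), -0.095, -0.030, -0.71, -1.01 and -0.67 with cytosolic ribosomal protein and mitochondrially encoded genes left out of the total. Classing cells by marker score gave 0.27, -0.10 and 0.090 for the adenoma comparisons, -0.15 for *LApc* over WT and -0.50, -0.58 and -0.46 for enterocyte-like cells. Averaging each cell's CPM gave 0.32 for *LApcL* over *LApc* adenoma-enriched cells, -0.17 and -0.16 for crypt cells of *LApc* and *LApcL* over WT, and -0.51, -0.83 and -0.47 for enterocyte-like cells. With cells of 6000 UMIs or more, the values were 0.25 for *LApcL* over *LApc*, 0.055 for adenoma-enriched over crypt cells in *LApcL*, -0.091 and -0.13 for the mutants over WT, and -0.59 and -0.35 for enterocyte-like cells of *LApc* and *LApcL*. A mitochondrial limit of 10% gave -0.13 for *LApc* over WT and -0.41, -0.52 and -0.32 for enterocyte-like cells. Without doublet removal, which also changed which clusters were named enterocyte-like, they were 0.085 for adenoma-enriched over crypt cells in *LApcL*, -0.15 and -0.16 for the mutants over WT, and -0.85, -1.07 and -0.63 for enterocyte-like cells. Adenoma cells picked by 7 transcripts gave -0.16 (*LApc*) and 0.042 (*LApcL*) over crypt cells and -0.15 for *LApc* over WT. The S100g-high cells alone gave 0.25 for *LApcL* over *LApc*. Each enterocyte-like cluster alone, an alternative chosen after seeing the data, gave -0.29, -0.43 and -0.21 for the cluster led by *Reg1* and -1.14, -1.67 and -1.06 for that led by *Apoa4*. Apart from the scales that change the total, the cause of these shifts was not tested.

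Counts past a fold differed more than the medians. The share of all genes past the limit was counted at the main setting alone. The other counts therefore describe the members and cannot be set against all genes. For *LApcL* over *LApc* adenoma-enriched cells, 33 members were higher past the fold limit, 66 on TMM scaling, 52 without ribosomal protein and mitochondrial genes, 21 with cells of 6000 UMIs or more, and 3 at a 1.5-fold limit. For adenoma-enriched over crypt cells in *LApc*, 27 were lower, then 56, 41 and, at 1.5-fold, 6. In *LApcL* 2 were lower, then 10 on either scale, and 8 were higher, 2 of them at 1.5-fold and 5 with adenoma cells picked by transcripts. For *LApc* over WT 17 were lower, 26 on TMM scaling and 1 at 1.5-fold, and for *LApcL* over WT 12, then 3 without ribosomal protein and mitochondrial genes and 1 at 1.5-fold. No paired analysis between genotypes was possible because each had 1 library. Cell classes were paired within each library by taking their ratio there, and no test over the 3 libraries was run. The depth limits single members in small sets most, such as the tuft-like cells of *LApc* (74 cells).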
